A study of Mus musculus with 3 samples.

Results

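TRα1 occupancy at the starts of long noncoding RNA (lncRNA) genes was examined in the adult mouse striatum. A TR binding site (TRBS) was taken as an lncRNA-start TRBS when its summit lay within 1 kb of the 5′ end of a gene annotated as lincRNA, antisense, bidirectional_promoter_lncRNA or processed_transcript and more than 1 kb from the 5′ end of every protein-coding gene. The rule used positions only and found 508 of the 23988 TRBS. It left out 579 TRBS that lay near both kinds of start. The data came from 2 ChIP libraries and 1 input library of male C57BL/6J mice aged 8 weeks, euthyroid and without treatment, in which a GS-tagged TRα1 was present in GABAergic neurons of the striatum. The tag depended on a floxed construct that limits it to a cell type, so that occupancy in the other cells of the striatum was not recorded. The driver of the recombination, and how many animals made up a library, were not given in the sources used here. The processed data were 1 peak list without values for each library. No value here therefore carries an error between animals, no test between conditions was possible, and all intervals are 95% intervals over sites that cover counting error only. The depth of the libraries was not analysed here. In chromatin from many cells, occupancy in fewer cells and weaker occupancy in each cell cannot be told apart.

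Long noncoding RNAs are transcripts without a recognised protein product. Some act in the nucleus as scaffolds or in chromatin silencing, some are mainly hosts of small RNAs carried in their introns, and many have no known function. Their genes start between coding genes (lincRNA), inside or beside a coding gene on the opposite strand (antisense), or close to a coding promoter and pointing away from it. TRα1, encoded by Thra, is the main thyroid hormone receptor of neurons and binds DNA mostly as a heterodimer with RXR on DR4 elements, which are repeats of the half-site AGGTCA in the same direction separated by 4 bases.

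The sequences closest to this element are shown first, as matches in sequence that were not tested for binding of the receptor. DR4 was searched on both strands as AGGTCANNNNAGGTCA within 100 bp of the summit, with at most 2 mismatches in its 12 half-site bases. Only 1 lncRNA-start TRBS held a DR4 without mismatch, and 9 held a best element with 1 mismatch. The 8 elements of highest rank follow with their surroundings in GRCm38, 5′ to 3′ on the strand given. Capitals mark the 16 bases of the element, from half-site to half-site.
Gm15510 (chr7:5057753-5057812, - strand): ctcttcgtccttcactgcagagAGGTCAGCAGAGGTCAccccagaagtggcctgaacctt
Gm16299 (chr19:53825287-53825346, + strand): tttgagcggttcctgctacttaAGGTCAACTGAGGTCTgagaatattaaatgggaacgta
Gm45605 (chr11:61407707-61407766, + strand): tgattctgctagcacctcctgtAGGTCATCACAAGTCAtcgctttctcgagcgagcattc
Gm47109 (chr12:98991995-98992054, + strand): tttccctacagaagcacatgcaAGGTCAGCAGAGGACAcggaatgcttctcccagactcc
Gm42812 (chr3:85553409-85553468, + strand): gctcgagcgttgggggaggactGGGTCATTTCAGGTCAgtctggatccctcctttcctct
Gm48321 (chr14:18022571-18022630, + strand): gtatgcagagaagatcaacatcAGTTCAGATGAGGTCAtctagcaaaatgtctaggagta
Gm3294 (chr6:28981431-28981490, + strand): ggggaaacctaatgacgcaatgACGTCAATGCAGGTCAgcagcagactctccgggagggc
Rab10os (chr12:3236136-3236195, - strand): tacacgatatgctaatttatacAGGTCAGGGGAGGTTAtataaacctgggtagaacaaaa
The TRBS of Gm15510, with the DR4 without mismatch, had a fold enrichment of only 6.83 and lay in an intron of Ccdc106, 498 bp from an annotated start of a Ccdc106 transcript. The TRBS of Gm16299 (34.8) and Gm45605 (26.5) had the highest fold enrichment of the 8. The TRBS of Gm48321 lay in an intron of Thrb, which encodes the β receptors for thyroid hormone, and held an element with 1 mismatch. Some of these elements lay far from the summit, with centres at 87.5 (Gm15510), 74.5 (Rab10os) and −73.5 bp (Gm48321). Some summits also lay far from the lncRNA start, at 995 (Gm47109), 765 (Gm48321), 587 (Rab10os) and 579 bp (Gm15510).

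Most of the strongest summits had no DR4 within 100 bp, as did most TRBS of any strength. One was present at 2 of the 15 strongest lncRNA-start TRBS, beside 13.1% of all TRBS. Over the whole peak, the share was 16.1% at lncRNA starts and 17.3% of all TRBS. The peaks of D730003I15Rik and Gm20109 held a DR4 farther from the summit. The next sequences are the 121 bases around the summits of 4 of the strongest lncRNA-start TRBS and of 5 at lncRNA genes of known identity. The first 4 held places 1, 2, 3 and 5 by fold enrichment and were all CpG-rich, whereas 8 of the 15 strongest were not. Capitals mark a DR4 with at most 2 mismatches or a match without mismatch to the half-site, the GC box GGGCGG, the CCAAT box CCAAT, the E-box CACGTG or 5 other motifs described with their shares, on either strand.
D730003I15Rik (chr1:191224547-191224667, + strand): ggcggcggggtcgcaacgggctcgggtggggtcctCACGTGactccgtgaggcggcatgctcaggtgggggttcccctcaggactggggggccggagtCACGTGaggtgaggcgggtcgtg
Gm15287 (chr13:111725452-111725572, + strand): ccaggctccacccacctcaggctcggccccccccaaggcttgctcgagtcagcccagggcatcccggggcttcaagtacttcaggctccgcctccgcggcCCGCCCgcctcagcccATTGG
Gm16124 (chr9:53667456-53667576, + strand): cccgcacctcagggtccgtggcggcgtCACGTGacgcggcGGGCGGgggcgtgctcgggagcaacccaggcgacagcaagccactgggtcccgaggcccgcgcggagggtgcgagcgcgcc
Gm20109 (chr17:28523013-28523133, + strand): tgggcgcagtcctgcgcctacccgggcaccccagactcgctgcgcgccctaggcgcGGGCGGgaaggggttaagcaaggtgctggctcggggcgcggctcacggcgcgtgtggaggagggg
Malat1 (chr19:5803495-5803615, + strand): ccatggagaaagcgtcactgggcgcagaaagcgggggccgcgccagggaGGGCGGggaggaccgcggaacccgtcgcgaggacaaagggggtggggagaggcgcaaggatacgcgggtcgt
Frmd8os (chr19:5845758-5845878, + strand): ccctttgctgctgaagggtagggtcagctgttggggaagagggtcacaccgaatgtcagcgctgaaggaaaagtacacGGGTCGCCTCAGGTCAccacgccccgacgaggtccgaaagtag
Snhg5 (chr9:88523002-88523122, + strand): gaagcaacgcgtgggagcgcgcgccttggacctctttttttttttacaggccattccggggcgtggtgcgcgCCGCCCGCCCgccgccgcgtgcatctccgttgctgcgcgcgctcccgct
Jpx (chrX:103493431-103493551, + strand): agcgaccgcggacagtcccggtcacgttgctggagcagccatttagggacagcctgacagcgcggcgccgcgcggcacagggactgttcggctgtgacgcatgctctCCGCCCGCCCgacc
Gad1os (chr2:70564038-70564158, + strand): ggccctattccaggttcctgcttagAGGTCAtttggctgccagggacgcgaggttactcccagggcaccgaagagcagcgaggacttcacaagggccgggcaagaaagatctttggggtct
The summit of D730003I15Rik lay between a pair of E-boxes. GC boxes stood in the windows of Gm15287, Gm20109, Gm16124, Malat1, Snhg5 and Jpx, and among these 9 windows a DR4 with at most 2 mismatches was found in that of Frmd8os.

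Fold enrichment, the ratio of the fragment pileup at the summit to the local background of the peak caller, had a median of 7.81 (7.44 to 8.18) over the 508 TRBS and ranged from 3.94 to 90.7. The pileup ranged from 14 to 263 fragments with a median of 23. The 4894 TRBS within 1 kb of a protein-coding start, hereafter coding-start TRBS, had a median fold enrichment of 7.81, and the 18586 TRBS elsewhere had one of 7.15. Fold enrichment reached 20 at 52 lncRNA-start TRBS, or 10.2% (7.89 to 13.2), against 8.86% of all TRBS. The difference from the coding-start TRBS was −0.27 percentage points (−2.77 to 2.79), so that the share of strong TRBS at lncRNA starts and at coding starts differed by less than its counting error. The peaks were between 231 and 2436 bp long, and their median length was 477 bp.

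The strongest lncRNA-start TRBS was that of D730003I15Rik, a lincRNA, with a fold enrichment of 90.7 and a pileup of 263 at chr1:191224249-191225403. It ranked as number 18 among all TRBS. Its summit lay in an exon, 153 bp downstream of the start and 6568 bp from Atf3, a gene of a stress-induced transcription factor that is transcribed in the opposite direction. The TRBS of Gm15287 (66.9, pileup 179) had its summit 5 bp upstream of the start and 44533 bp from Mier3. The peak of Gm16124 (48.8, pileup 202) lay in an intron of Cul5, a scaffold of ubiquitin ligases, on the strand opposite to it. AC164314.1 had 2 TRBS, with fold enrichments of 46.4 and 18.6, and they overlapped the coding gene model Gm49673. The TRBS of Gm20109 (46.3) lay 75 bp downstream of the Gm20109 start and 353 bp downstream of that of E230001N04Rik, and 5546 bp from Fkbp5, a steroid-responsive co-chaperone gene. At 4632428C04Rik (43.8), the nearest coding start was that of Hes1, a repressor of the Notch pathway, at 55842 bp.

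Places 7 to 15 were taken by Gm36644, 2810403D21Rik, Gm44702, Malat1, Gm31793, Gm30806, Gm28592, Gm44995 and Gm16299, with fold enrichments from 43.5 down to 34.8. Among the 15, 12 peaks covered the annotated lncRNA start, 7 were CpG-rich, 8 lay outside coding genes and 2, at Gm30806 and Gm16299, held a DR4. An annotated start of a coding transcript lay within 1 kb of 4 of them: 5 bp from the summit of Gm16124 (Cul5), 8 bp from that of Gm44995 (Tmem135), 37 bp from that of Gm28592 (Phlda1) and 358 bp from that of Gm44702 (Hnrnpl). At these 4, occupancy at the lncRNA start and at a coding promoter cannot be told apart.

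**Figure D1:**
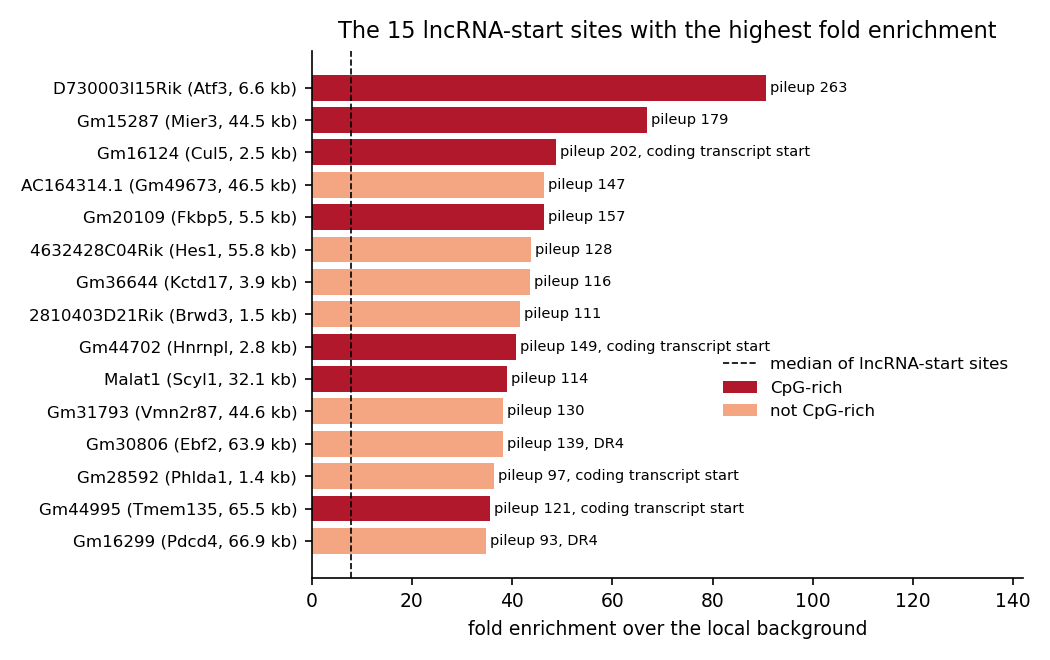
Fold enrichment of the 15 strongest lncRNA-start TRBS (bars, dark where CpG-rich), each with the nearest coding gene and its distance, the fragment pileup, and whether a DR4 or a coding transcript start was near. The values run from 34.8 at Gm16299 to 90.7 at D730003I15Rik, all far above the median of 7.81 (dashed line).

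Such alternative coding starts were common. The rule measured distance from the 5′ end of coding genes, and 101 of the 508 TRBS (19.9%, 16.6 to 23.6) lay within 1 kb of the start of some annotated transcript of a coding gene. Of these, 61.4% (51.6 to 70.3) were CpG-rich, against 23.8% (20.0 to 28.2) of the other 407. Their median fold enrichment was 7.81, as was that of the other 407. A DR4 was found in 8.91% (4.76 to 16.1) and 12.8% (9.88 to 16.4), respectively.

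By type, the nearest lncRNA gene was a lincRNA for 243 TRBS, an antisense transcript for 194, a processed transcript for 67 and a bidirectional promoter lncRNA for 4. In all, 489 lncRNA genes had such a TRBS within 1 kb of their start. Most are known by a placeholder name only: 296 had a Gm number, 114 a Rik clone name and 36 a clone accession, so that 43 had another name. The TRBS were spread thinly over genes, since 442 lncRNA symbols were nearest to a single TRBS and 33 to 2. The 5 with the highest summed fold enrichment among the 33 were AC164314.1, Malat1, Gm13661, Gm15978 and Gm28960.

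A start of an lncRNA gene was less often occupied than a coding start. Among the 8382 lncRNA genes that start more than 1 kb from coding starts, 461 (5.50%, 5.03 to 6.01) had an lncRNA-start TRBS, whereas 5092 of 21938 protein-coding genes (23.2%, 22.7 to 23.8) had a TRBS within 1 kb. With every coding transcript start in place of gene starts, the share of lncRNA genes was 4.77% (4.32 to 5.26). By type, it was 4.17% (3.68 to 4.73) for lincRNA, 7.31% (6.32 to 8.43) for antisense and 11.0% (8.63 to 14.0) for processed transcripts, and these 3 intervals did not overlap. The types also differed in the base composition of their starts, and the intervals overlapped in part within the composition classes given below. The 1411 lncRNA genes that start within 1 kb of a coding start, which the rule leaves out, had a TRBS of any kind in 37.8% (35.4 to 40.4).

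The share of occupied starts differed with the base composition of the start, at lncRNA genes as at coding genes. A window of 500 bp was called CpG-rich when GC content was at least 50% and the ratio of observed to expected CpG at least 0.6. Only 5.88% of the 8382 lncRNA starts were CpG-rich, against 47.6% of the coding starts. Of the CpG-rich lncRNA starts, 143 of 493 (29.0%, 25.2 to 33.2) had a TRBS, and of the others 318 of 7889 (4.03%, 3.62 to 4.49). Most of the 461 occupied lncRNA starts were not CpG-rich. The corresponding shares of coding genes were 40.6% (39.6 to 41.5) and 7.45% (6.99 to 7.95). Without TRBS and genes near any coding transcript start, the shares of lncRNA genes were 27.7% (23.3 to 32.7) and 3.71% (3.31 to 4.16). Within each composition class the lncRNA genes as a whole remained below the coding genes. CpG-rich starts of processed transcripts, of which 42.5% (32.3 to 53.4) had a TRBS, did not. A DR4 within 100 bp of the start was present at 206 lncRNA genes, of which 5.83% (3.36 to 9.90) had a TRBS, against 5.49% (5.02 to 6.01) of those without one.

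**Figure D2:**
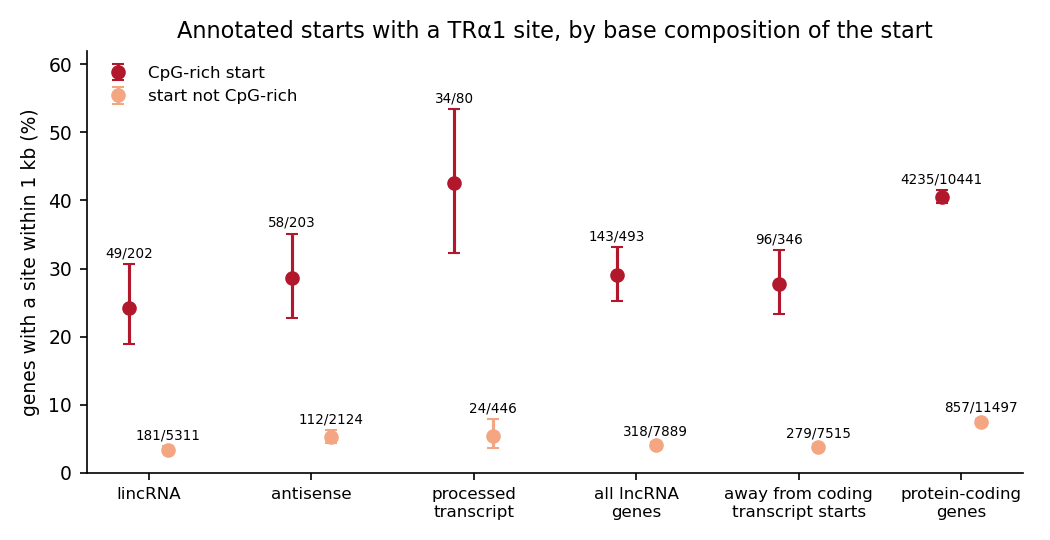
Percentage of genes with a TRBS within 1 kb of the start, for CpG-rich starts (dark) and other starts (light), with 95% Wilson intervals and the counts. lncRNA genes are those that start over 1 kb from coding starts, and only TRBS over 1 kb from coding starts were counted for them. In every class shown, CpG-rich starts were above the others, with 29.0% against 4.03% for all lncRNA genes.

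Seen from the TRBS, 159 of the 508 lncRNA-start TRBS (31.3%, 27.4 to 35.5) were CpG-rich around the summit, against 20.4% of all TRBS. The coding-start TRBS stood at 77.4% and the TRBS elsewhere at 5.06%. The difference was −46.1 percentage points (−50.1 to −41.7) from the former and 26.2 (22.3 to 30.4) from the latter. The share of lncRNA-start TRBS thus lay between those of the other groups, also without the TRBS within 1 kb of a coding transcript start (23.8%). The share was 20.6% (15.97 to 26.1) at lincRNA, 35.6% (29.2 to 42.5) at antisense transcripts and 56.7% (44.8 to 67.9) at processed transcripts. Median fold enrichment was 8.15 (7.42 to 9.04) at CpG-rich and 7.81 (7.08 to 8.18) at the other lncRNA-start TRBS.

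In position, the summits gathered in the 250 bp before the start and the 100 bp after it. Per 100 bp, there were 54.7 TRBS between 250 and 100 bp upstream, 49 in the last 100 bp upstream and 50 in the first 100 bp downstream, and the number fell to 15.2 beyond 500 bp upstream and 18.8 beyond 500 bp downstream. The median distance from the start was 314 bp, against 218 bp at coding starts. Downstream summits made up 47.6% (43.3 to 52.0) of the lncRNA-start TRBS and 59.8% (58.4 to 61.1) of the coding-start TRBS, a difference of −12.1 percentage points (−16.6 to −7.57). The downstream excess of coding starts was thus not seen at lncRNA starts.

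**Figure D3:**
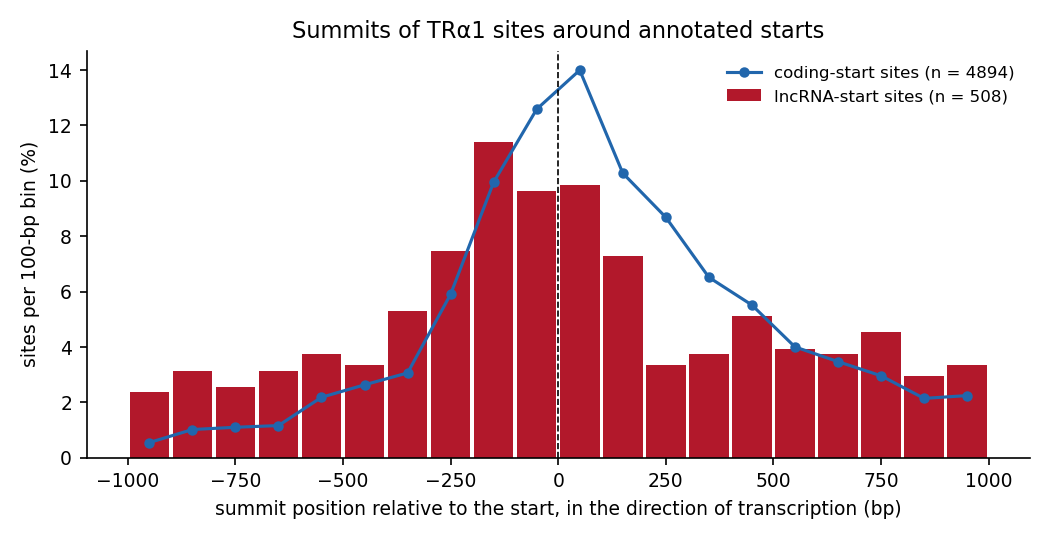
Position of summits relative to the annotated start, in bins of 100 bp, as a percentage of lncRNA-start TRBS (bars, n = 508) and coding-start TRBS (line, n = 4894). The highest bar, 11.4%, is 100 to 200 bp upstream of the start, whereas the line peaks at 14.0% in the first 100 bp downstream.

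The peak itself covered the lncRNA start at 240 TRBS (47.2%, 42.9 to 51.6), against 59.8% of coding-start TRBS, a difference of −12.6 percentage points (−17.1 to −8.02). The share was 46.4% at antisense transcripts, 47.3% at lincRNA and 50.7% at processed transcripts. Median fold enrichment was 9.25 at TRBS that covered the start and 7.07 at the other 268. The former peaks were also longer, with a median of 576 bp against 407.5 bp, and a longer peak covers a start more readily. CpG-rich windows were found in 37.9% and 25.4%, a difference of 12.5 percentage points (4.45 to 20.5). DR4 shares differed by 0.93 percentage points (−4.74 to 6.74).

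Relative to coding genes, 217 of the 508 summits lay inside a coding gene, with 167 in introns and 50 in exons, and 291 lay outside. The host gene was transcribed from the strand opposite to the lncRNA in 202 cases. Of the TRBS at antisense transcripts, 161 of 194 (83.0%) were inside a coding gene, compared with 24 of 243 (9.88%) at lincRNA. The nearest coding gene start was at a median of 28597.5 bp. It lay within 5 kb for 120 TRBS, of which 76 had an lncRNA convergent with or antisense to the coding gene, 28 a divergent one and 16 one in the same direction. Another TRBS lay within 10 kb of 48.4% (44.1 to 52.8) of the lncRNA-start TRBS, against 38.8% (37.5 to 40.2) at coding starts and 38.9% (38.2 to 39.6) elsewhere. Among CpG-rich TRBS the shares were 45.3% (37.7 to 53.0), 36.2% (34.7 to 37.8) and 54.6% (51.4 to 57.7). Among the others they were 49.9% (44.6 to 55.1), 47.7% (44.8 to 50.7) and 38.1% (37.4 to 38.8). In neither class did the interval at lncRNA starts lie above both of the others. Repeats masked in the reference sequence covered the summit in 7.48% (5.50 to 10.1), against 10.3% of all TRBS.

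A DR4 was found at 61 lncRNA-start TRBS, or 12.01% (9.46 to 15.1), against 13.1% of all TRBS. In windows of the same width 5 kb to the right of the summits the share was 2.56% (1.502 to 4.33). Coding-start TRBS had a DR4 in 6.35% (5.70 to 7.07) and TRBS elsewhere in 14.96% (14.5 to 15.5). The lncRNA-start TRBS stood 5.65 percentage points above the former (3.01 to 8.84) and −2.96 from the latter (−5.55 to 0.20). Base composition moved with these shares. Among CpG-rich TRBS, a DR4 was present in 6.92% (3.91 to 11.96) at lncRNA starts, 4.33% (3.73 to 5.03) at coding starts and 5.11% (3.87 to 6.71) elsewhere. Among the others, the shares were 14.3% (11.0 to 18.4), 13.3% (11.4 to 15.4) and 15.5% (14.96 to 16.03). Within the composition classes, the difference from coding-start TRBS was 2.59 percentage points (−0.50 to 7.67) and 1.06 (−2.86 to 5.53), and neither was larger than the counting error. Within lncRNA-start TRBS, CpG-rich and other TRBS differed by −7.41 percentage points (−12.5 to −1.39).

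**Figure D4:**
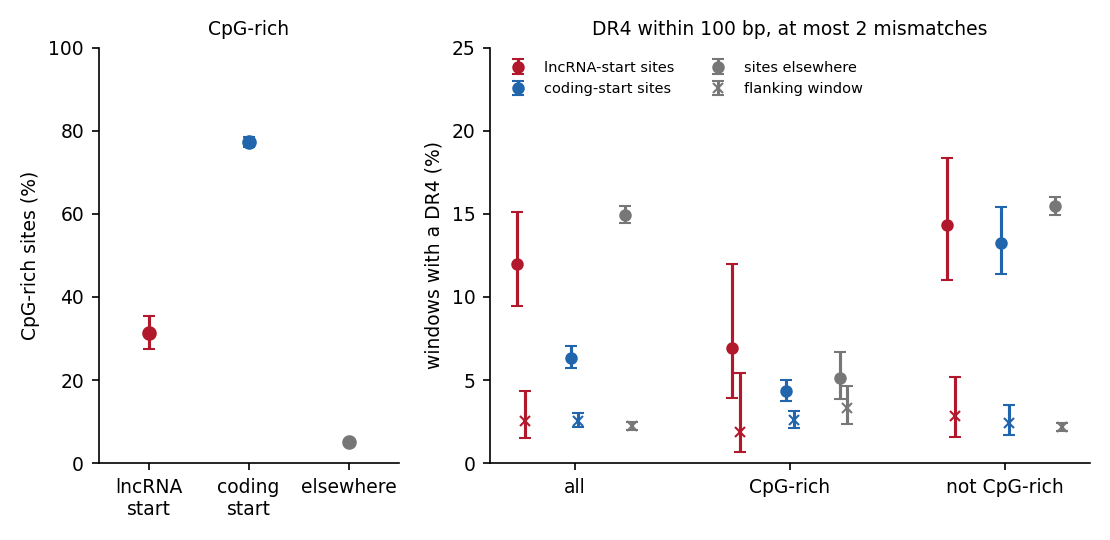
Left, percentage of TRBS with a CpG-rich 500-bp window. Right, percentage of windows with a DR4 within 100 bp of the summit (circles) and 5 kb away (crosses), over all TRBS and by composition class, with 95% Wilson intervals. The 12.01% of lncRNA-start TRBS lies between coding-start TRBS (6.35%) and those elsewhere (14.96%), while within a composition class the 3 groups are close together.

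The DR4 share differed with fold enrichment. With the lncRNA-start TRBS in 5 equal classes from the weakest to the strongest, it was 3.92% (1.54 to 9.65), 11.9%, 9.80%, 16.8% and 17.6% (11.5 to 26.2). TRBS with a DR4 had a median fold enrichment of 10.6 (8.61 to 12.2), against 7.53 (7.13 to 7.98) without one. The centre of the best element was at a median of 25.5 bp from the summit, within 25 bp at 30 of 61 TRBS (49.2%) and within 50 bp at 52 (85.2%, 74.3 to 92.04), against 45.6% and 75.3% of all TRBS with a DR4. The downstream half-site, on which TR sits in the heterodimer, was intact in 14 of the 61 best elements and the upstream half-site in 9, while 39 had at least 1 mismatch in each. Over all TRBS with a DR4, the downstream half-site was intact in 26.9% and the upstream one in 26.6%. The intervals at lncRNA starts, 14.2 to 34.9% and 7.96 to 25.7%, overlapped each other. The share with both changed was 63.9% (51.4 to 74.8), against 50.1% (48.3 to 51.8) over all TRBS with a DR4. It was 51.8% (46.2 to 57.3) at coding starts and 49.6% (47.7 to 51.4) elsewhere. The interval at lncRNA starts overlapped that of coding starts and touched that of TRBS elsewhere. By type, a DR4 was present in 14.0% (10.2 to 18.9) at lincRNA, 11.3% (7.61 to 16.6) at antisense transcripts and 7.46% (3.23 to 16.3) at processed transcripts.

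More than 1 match to DR4 was found at 5 of the 61 TRBS, which held from 2 to 9 matches, at least some of which overlapped. Each of these 5 TRBS was counted once among the 61.

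Of 9 motifs searched without mismatch in the same windows, the GC box differed most in share between the lncRNA-start summits and their surroundings. It was present in 27.8% (24.0 to 31.8), against 3.94% (2.56 to 6.00) in the windows 5 kb away, 52.8% at coding starts and 8.76% elsewhere. Within CpG-rich TRBS, 59.1% (51.4 to 66.5) at lncRNA starts and 61.6% (60.1 to 63.2) at coding starts had one. Within the other TRBS, 13.5% (10.3 to 17.4) at lncRNA starts stood below 22.8% (20.5 to 25.4) at coding starts and above 6.36% (6.01 to 6.73) elsewhere. The ETS core CCGGAAG was found in 3.35%, with an upper bound of 5.29%, compared with 9.17% (8.40 to 10.02) at coding starts and 1.25% elsewhere. Within CpG-rich TRBS, it was in 5.03% (2.57 to 9.61) at lncRNA starts, 11.1% (10.1 to 12.1) at coding starts and 5.32% elsewhere. Within the other TRBS, the shares were 2.58% (1.36 to 4.83), 2.71% (1.90 to 3.84) and 1.03%. The interval at lncRNA starts thus lay below coding starts only in the CpG-rich class. The E-box was found in 6.69% (4.83 to 9.21), against 6.56% (5.90 to 7.29) at coding starts and 4.13% (3.85 to 4.42) elsewhere. Within CpG-rich TRBS, the shares were 10.1% (6.29 to 15.7), 6.97% (6.20 to 7.83) and 7.13% (5.65 to 8.95). Within the other TRBS, they were 5.16% (3.29 to 8.00), 5.14% (3.99 to 6.61) and 3.97% (3.69 to 4.27). In both classes the interval at lncRNA starts overlapped the other intervals. The CRE TGACGTCA, the element of CREB, was found in 0.79% (0.31 to 2.01), against 1.49% at coding starts and 0.29% elsewhere. The windows 5 kb away from the lncRNA-start summits held the E-box in 2.56% and the CRE in 0.20%.

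The single half-site AGGTCA, which every DR4 with an intact half-site also contains, was found in 19.9% (16.6 to 23.6), against 12.01% (9.46 to 15.1) 5 kb away. Coding-start TRBS had it in 12.6% (11.7 to 13.6) and TRBS elsewhere in 19.1%. Among CpG-rich TRBS the shares were 20.8% (15.2 to 27.7) at lncRNA starts, 10.8% (9.88 to 11.9) at coding starts and 11.7% (9.80 to 13.9) elsewhere. Among the others, which held 349 of the 508 lncRNA-start TRBS, they were 19.5% (15.7 to 24.0), 18.8% (16.6 to 21.2) and 19.4% (18.9 to 20.03), so that the half-site was more frequent at lncRNA starts only in the CpG-rich class. The AP-1 element TGANTCA, bound by Fos and Jun dimers, was present in 10.04% (7.72 to 13.0), above the 3.06% (2.62 to 3.59) of coding-start TRBS and below the 13.7% (13.2 to 14.2) of TRBS elsewhere. Among CpG-rich TRBS it was 4.403% (2.15 to 8.81) at lncRNA starts, 2.17% (1.75 to 2.68) at coding starts and 3.94% (2.87 to 5.38) elsewhere, and among the others 12.6% (9.53 to 16.5), 6.14% (4.87 to 7.71) and 14.2% (13.7 to 14.7), so that the interval at lncRNA starts lay apart from coding starts only among the others and from TRBS elsewhere in neither class. The CCAAT box (18.5% against 23.6%) and the TATA box TATAAA (5.91% against 11.8%) were not more frequent at the summit than 5 kb away. The MEF2 core CTANNNNTAG stood at 3.35% and 3.54%. A match describes the sequence and not a bound factor.

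**Figure D5:**
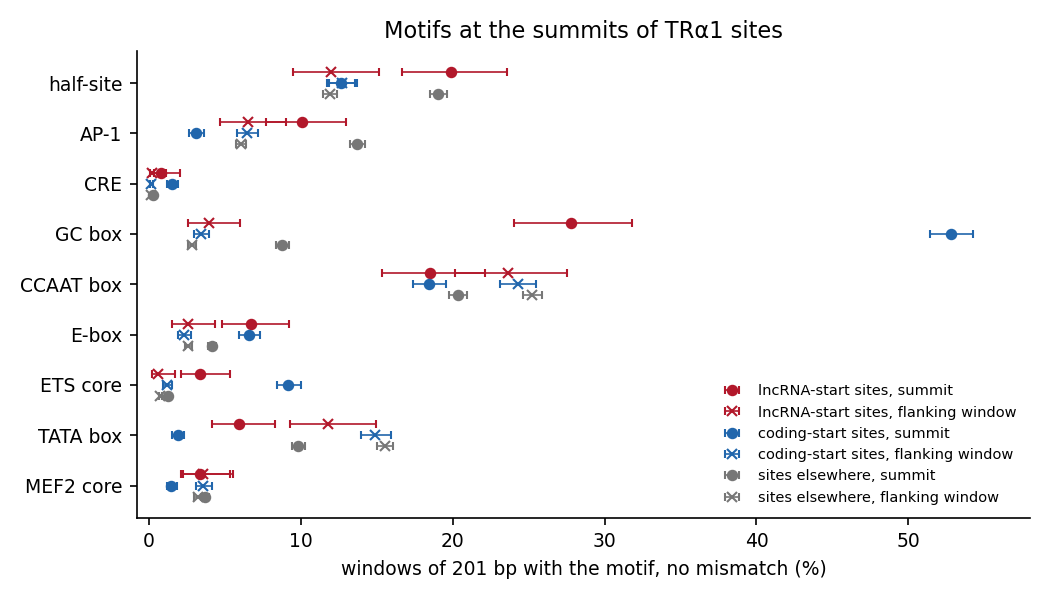
Percentage of windows with each of 9 motifs, at the summit (circles) and 5 kb to the right (crosses), with 95% Wilson intervals, for lncRNA-start TRBS, coding-start TRBS and TRBS elsewhere. For the GC box, lncRNA-start TRBS (27.8%) lie between coding starts (52.8%) and the rest (8.76%).

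lncRNA genes with known roles were examined in lists. The list of small nucleolar RNA host genes, whose introns carry RNAs that mostly guide the modification of ribosomal RNA, held 15 genes. Of these, 10 start more than 1 kb from coding starts, and 5 of the 10 had an lncRNA-start TRBS. They were Snhg5 (fold enrichment 29.7, pileup 92), Snhg20 (16.4), Snhg6 (13.3), Snhg15 (11.6) and Snhg7os (8.74). The last was counted with the hosts although it is an antisense transcript of such a gene. All 5 were CpG-rich around the summit, and among all CpG-rich lncRNA starts 29.0% (25.2 to 33.2) had a TRBS. None of the 5 held a DR4 with at most 2 mismatches, beside 6.92% of all CpG-rich lncRNA-start TRBS. The summits of Snhg15 and Snhg6 lay 13 and 30 bp downstream of the start. The share of all lncRNA genes that could have such a TRBS was 5.50%. Gas5 had a TRBS that the rule leaves out, since a coding start was near.

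Of the 9 abundant nuclear or housekeeping lncRNAs that start more than 1 kb from coding starts, 3 had an lncRNA-start TRBS, beside the 5.50% of all such genes. The strongest TRBS of each of the 3 was CpG-rich around the summit. Among all CpG-rich lncRNA starts, 29.0% (25.2 to 33.2) had a TRBS. Malat1, a transcript of nuclear speckles, had one with a fold enrichment of 39.0 and a pileup of 114 whose summit lay 883 bp upstream of its start, and a weaker one (5.69, pileup 16) 662 bp inside the gene. Neat1, the scaffold of paraspeckles, shared a TRBS of 30.7 with Frmd8os, which starts in the opposite direction. Its summit lay 340 bp upstream of Neat1 and 195 bp downstream of the Frmd8os start, and its pileup of 179 stood over a local background of 4.86 fragments. Dleu2, the host of a microRNA cluster, had 2 TRBS with fold enrichments of 9.04 and 5.15. The Tug1 start had a TRBS near a coding start as well, and Miat, Pvt1, Firre and Crnde had none.

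Among imprinted and X-inactivation lncRNAs, all starting over 1 kb from coding starts, 2 of 11 had an lncRNA-start TRBS. The share over all such lncRNA genes was 5.50%, and over those with a CpG-rich start it was 29.0% (25.2 to 33.2). The peak at Jpx, an activator of Xist, was CpG-rich and had a fold enrichment of 21.2 with its summit 65 bp upstream of the start. Kcnq1ot1, an imprinted transcript antisense to Kcnq1, had one of 5.58 at 218 bp upstream. The Kcnq1ot1 peak was not CpG-rich and was weak, with a score of 66 and a pileup of 14, the lowest pileup of any lncRNA-start TRBS. Xist, Tsix, Meg3, Rian, H19 and Airn had no TRBS within 1 kb of their starts. On the list of microRNA host genes, which did not include Dleu2, 10 start over 1 kb from coding starts. Only Mir124-2hg (5.58), the host of a neuronal microRNA, had an lncRNA-start TRBS among these 10, also with a pileup of 14 and a score of 66. The TRBS of Mir22hg was near a coding start. Zfhx2os (6.11) was the only one with an lncRNA-start TRBS among 11 such lncRNAs beside brain transcription factors. No TRBS was found at the starts of Dlx1as, Dlx6os1, Sox2ot and Rmst.

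Opposite-strand transcripts, named after the coding gene they oppose, had an lncRNA-start TRBS in 17 of the 210 genes that start over 1 kb from coding starts (8.10%), against 5.50% of all such lncRNA genes and 7.31% of antisense ones. Snhg7os and Zfhx2os belong to this list as well as to another. Fold enrichment was highest at Frmd8os (30.7) and Pcsk2os1 (26.5), whose peak of 1517 bp lay in an intron of Pcsk2, a prohormone convertase, 192 bp inside the transcript and with a DR4 of 2 mismatches. Gad1os had one of 12.03, in an intron of Gad1, the enzyme that makes GABA, with the summit 741 bp upstream of the Gad1os start and 656 bp from an annotated Gad1 transcript start. The values of Chn1os3 and Foxo6os were both 11.2. Those of Rab10os, Snhg7os, Ino80dos, Hk1os, Runx2os1 and Dtnbos lay from 8.98 to 8.13, and those of Cdk19os, Zfhx2os, Sp3os, Pcsk2os2, Arhgap20os and Nr6a1os from 6.58 to 5.27. At Cdk19os, Hk1os, Sp3os and Runx2os1, a coding transcript start lay 4, 121, 108 and 160 bp from the summit.

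Genes of thyroid hormone signalling (20 genes) and genes characteristic of striatal projection neurons (25 genes) were examined as hosts or nearest coding genes of lncRNA-start TRBS. For each list, 3 TRBS were found. The corresponding share over all coding genes was not computed, so that the cases below are descriptions of single TRBS. The TRBS of Gm48321 lay in an intron of Thrb, 41145 bp from the nearest coding transcript start, and had a fold enrichment of 15.2 and a pileup of 40. The one at Gm34785 (7.81) had Dio3, the deiodinase that inactivates thyroid hormone, as its nearest coding gene, at 91492 bp. Among genes of striatal projection neurons, Gpr6 was nearest to the TRBS of Gm48057 (10.8, at 36236 bp), and Rarb, a retinoic acid receptor gene, was the host of that of Gm48162 (5.20). The last lay 156 bp from an annotated coding transcript start. No expression was measured in these samples, so that occupancy was not compared with transcription of any of these genes.

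The longest lncRNA-start peaks were those of 9130230N09Rik (2436 bp, fold enrichment 29.6), Gm11766 (2021 bp, 30.6), Gm26707 (1795 bp, 21.6), Gm20109 (1744 bp, 46.3) and AC122487.1 (1657 bp, 8.47). Pairs of lncRNAs that start head to head could share a TRBS, as did Lncpint, a p53-induced transcript, and 2210408F21Rik, with the summit 25 bp upstream of the former and 162 bp downstream of the latter and a fold enrichment of 6.47. In all, 14 TRBS had more than 1 lncRNA start within 1 kb. At the limit of 1 kb from the lncRNA start, the nearest members were at 999 bp (Gm43134), 998 bp (Gm16958) and 997 bp (Gm10655), and the nearest TRBS left out at 1010 bp (Chn1os1), 1026 bp (2900089D17Rik) and 1027 bp (AC113104.3). At the limit from coding starts, members began at 1026 bp (Gm11629), 1039 bp (Gm34418) and 1055 bp (Gm43573), and the TRBS of 2900060N12Rik, Junos and N4bp2os were left out at 992, 986 and 982 bp.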

How the data were processed

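ChIP and input reads had been aligned to GRCm38 by the authors with Bowtie2 2.3.2.2, and peaks called with MACS2 2.1.1.20160309.0, as named in the submitters' processing notes, and peaks with a score below 60 removed. Whether the 2 ChIP libraries were pooled, and how duplicates were treated, was not stated. The deposited pileup is the fragment coverage (signal) at the summit. The deposited fold enrichment is the ratio of pileup plus 1 to local background plus 1. The score is 10 times the deposited −log10 q, cut to a whole number, and both come from MACS2. Pileup, fold enrichment and score were used. All measurement columns belonged to the series as a whole, and 0 columns of single samples were left out.

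Starts were the 5′ ends of GENCODE vM21 genes. Intervals are 95% Wilson (shares), Newcombe (differences) and order-statistic (medians). DR4, with at most 2 mismatches, replaces the matrix of the study. Members, lists and measures were chosen with earlier results of these data known. Named genes were those of the 15 strongest TRBS, the 10 best DR4, the lists, the 5 genes with most TRBS, the 5 longest peaks and the 3 TRBS on either side of each limit. The splits of starts, motifs and neighbouring TRBS by base composition were chosen after seeing the data. The lists were written from general knowledge, and a few of their results are not reported here. Other named features were chosen after their values were seen: Lncpint, E230001N04Rik, Gas5, Tug1, Mir22hg and the list genes without a TRBS. Computations ran under Python 3.11.15 with pysam 0.24.0, scipy 1.17.1 and pandas 2.3.3. The search, the member rule and the intervals were tested on simulated data.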

Additional observations from a re-analysis of the deposited data

How the results depend on the processing

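Of 64 alternative values, 44 stayed within the interval or count limit of the value reported, 19 moved and 1 changed sign. Within 500 bp of the lncRNA start there were 338 TRBS, at 4.02% of lncRNA genes, and within 2 kb the gene share was 7.24% and the CpG-rich share 25.4%. Measuring from every coding transcript start gave a CpG-rich share of 23.8% and a gene share of 4.77%. A score of at least 200 left 196 TRBS with a median fold enrichment of 14.5, a DR4 share of 18.4%, 42.9% downstream and a gene share of 2.21%. The DR4 difference from TRBS elsewhere then became 0.0174 percentage points (−4.89 to 6.11). At every other setting tried this difference stayed below 0. It ran from −5.05 (−9.19 to −0.71) with at most 3 mismatches to −1.26 (−3.51 to 1.58) within 50 bp of the summit. Some of these intervals included 0 and some did not. With at most 1 mismatch, the DR4 share was 1.97% at the summit and 0.394% in the flanking window, 1.05 percentage points above coding starts. With at most 3, it was 36.8% and 17.9%, 12.2 percentage points above coding starts. Within 50 bp of the summit it was 9.06%. Stricter limits for CpG-rich windows, GC of at least 55% and a ratio of at least 0.65, gave 25.2%. The DR4 differences and the flanking windows with other mismatch limits were added after seeing the data. The cause of these changes was not tested, beyond the fewer or more sites or matches that each setting admits. No paired analysis was possible because the peak list has no values for single libraries, and for the same reason no library could be left out.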
